A study of Rattus norvegicus with 20 samples.

Results

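The C1q-like genes C1ql1, C1ql2, C1ql3 and C1ql4 and the cerebellin genes Cbln1, Cbln2 and Cbln4 were followed through the polyadenylated transcriptome of the rat supraoptic nucleus (SON). They are 7 of the 32402 genes in each deposited table and were taken by gene symbol. The family was selected on the normalized counts of C1ql4, which were lower in all 3 comparisons, so these are given as a description with no test, and the other 6 genes were tested. The libraries came from male Wistar Han rats, 5 in each of 4 groups: adult (3 months old) and aged (18 months old), each euhydrated (EH) or dehydrated (DH). The labels give 2 days of DH, the study's methods give a longer period, and the labels carry the same treatment text for every sample. Each library was made from bilateral punches centred on the SON of 1 rat, so it holds neighbouring tissue as well as magnocellular neurones. In bulk samples of this kind, fewer cells of a type and less RNA per cell cannot be told apart.

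C1q-like proteins and cerebellins are small secreted proteins that end in a globular C1q domain and assemble into multimers. They lie in the synaptic cleft, where they join presynaptic neurexins to postsynaptic partners. These include the delta glutamate receptors, kainate receptors and the adhesion receptor Adgrb3 (BAI3). Cbln1 holds parallel fibre synapses together in the cerebellum, C1ql1 does so for climbing fibres, and C1ql2 and C1ql3 are best known from hippocampal mossy fibres. In the SON, the synaptic inputs of the vasopressin and oxytocin neurones are known to be remodelled during DH.

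All 3 tables hold read counts divided by a size factor, called normalized counts here, and each table was scaled on its own 10 libraries. Recovery of whole reads was tried in the adult DH table only. It succeeded there, and the libraries held 24268398 to 28491926 reads on genes. Per library, the normalized counts summed to 25931931 to 28689164 over the 3 tables. Vasopressin (Avp) counts ran from 113731 to 325751 and oxytocin (Oxt) counts from 71073 to 147870 in the 2 DH tables, so the labelled tissue showed its defining transcripts in every library. The log2 fold change (LFC) was taken on log2 of the normalized count plus 1 and tested with limma over all genes with a mean of at least 10. A gene was called at an adjusted p under 0.05. The ageing and adult DH comparisons share the adult EH rats, and the ageing and aged DH comparisons share the aged EH rats. By the study's methods the adult and aged rats were handled alongside each other under the same conditions, and the labels name no batch.

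Promoter sequences were matched in RefSeq (GRCr8) for 5 of the 7 genes, namely C1ql2, C1ql3, C1ql4, Cbln2 and Cbln4. The 250 bases before the start site are shown for 4 genes on which the results turn: C1ql4 and C1ql2 for ageing, and C1ql3 and Cbln4 for DH. They are printed 5′ to 3′ on the gene's strand, with capitals for the TATA motif TATAAA, the only motif searched for that was found. Positions are chr7:132125610-132125859 (minus strand) for C1ql4, chr13:34023652-34023901 (plus strand) for C1ql2, chr17:81038245-81038494 (minus strand) for C1ql3 and chr3:181225601-181225850 (minus strand) for Cbln4, all in GRCr8.
C1ql4: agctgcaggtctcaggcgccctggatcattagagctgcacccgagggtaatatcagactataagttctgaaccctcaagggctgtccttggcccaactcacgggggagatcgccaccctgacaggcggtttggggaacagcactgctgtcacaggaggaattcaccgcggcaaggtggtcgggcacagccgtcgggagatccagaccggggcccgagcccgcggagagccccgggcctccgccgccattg
C1ql2: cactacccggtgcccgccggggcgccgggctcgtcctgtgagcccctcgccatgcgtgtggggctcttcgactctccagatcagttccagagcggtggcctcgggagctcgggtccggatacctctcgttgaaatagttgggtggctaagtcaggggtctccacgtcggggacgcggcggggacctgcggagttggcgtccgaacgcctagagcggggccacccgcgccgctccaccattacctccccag
C1ql3: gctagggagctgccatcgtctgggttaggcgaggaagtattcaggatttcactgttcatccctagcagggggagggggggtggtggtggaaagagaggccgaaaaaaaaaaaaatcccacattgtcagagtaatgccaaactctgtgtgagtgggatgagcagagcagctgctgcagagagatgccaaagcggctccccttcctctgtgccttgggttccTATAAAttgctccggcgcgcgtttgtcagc
Cbln4: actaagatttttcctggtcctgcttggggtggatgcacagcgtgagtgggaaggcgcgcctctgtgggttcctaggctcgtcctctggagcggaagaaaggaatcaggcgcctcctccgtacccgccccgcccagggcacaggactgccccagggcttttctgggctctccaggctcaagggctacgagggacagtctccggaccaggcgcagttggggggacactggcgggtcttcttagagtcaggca

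The windows searched held these 250 bases and the 50 after the start, and both strands were read. The cyclic AMP response element TGACGTCA is in 1.83% of all 33469 promoter windows, the AP-1 motif TGANTCA in 7.33%, the EGR motif GCGNGGGCG in 4.98% and TATAAA in 14.2%. None of these letters except TATAAA was found in the 5 windows, which says only that they are not in this stretch. TATAAA lies in the C1ql3 window alone, on the plus strand of the gene at positions -30 to -25, where -1 is the last base before the start. The C1ql4 window is 64.3% G and C, the C1ql2 window 70.3%, the Cbln4 window 62.7% and the C1ql3 window 54.7%, beside a median of 51.7% over all windows.

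C1ql4 (ENSRNOG00000060020), a ligand of Adgrb3, was lower with age and lower after DH at both ages. In the ageing table its normalized counts were 104, 144, 115, 148 and 161 in the adult EH rats. In the aged EH rats they were 62.6, 68.1, 44.9, 59.98 and 54.4. Every aged EH rat was below every adult EH rat, and the aged mean was 0.431 times the adult mean (57.98 ± 8.82 against 134 ± 23.7, SD, n = 5). The LFC was -1.19, at rank 40 from the lowest of 15369 genes. The study's text gives C1ql4 as an example of a gene upregulated during ageing, which is the reverse of these counts.

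In adult rats, C1ql4 had 100.1, 138, 110.4, 142 and 154 normalized counts in EH and 36.8, 40.4, 37.3, 28.1 and 38.4 in DH. These stand for 104 to 160 whole reads per EH library and 25 to 39 per DH library. The groups did not overlap, and the DH mean was 0.281 times the EH mean (36.2 ± 4.75 against 129 ± 22.8, SD, n = 5). The LFC was -1.80, and only 3 of 15280 genes had a lower one. In aged rats the counts were 62.5, 67.96, 44.9, 59.9 and 54.05 in EH and 25.2, 26.0, 26.7, 31.5 and 23.2 in DH. Again the groups did not overlap, with a DH mean 0.459 times the EH mean (26.5 ± 3.08 against 57.9 ± 8.81, SD, n = 5) and an LFC of -1.09 at rank 18 of 15346.

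Set side by side across tables that were scaled separately, C1ql4 was highest in adult EH, lower in aged EH, lower again in adult DH and lowest in aged DH. The adult DH rats (28.1 to 40.4) and the aged DH rats (23.2 to 31.5) overlapped. The LFC of DH was less negative by 0.71 in aged than in adult rats. Within groups the coefficient of variation of C1ql4 was between 11.6% and 17.7%. The plot of each rat's counts shows these groups beside those of the other 6 genes.

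**Figure D1:**
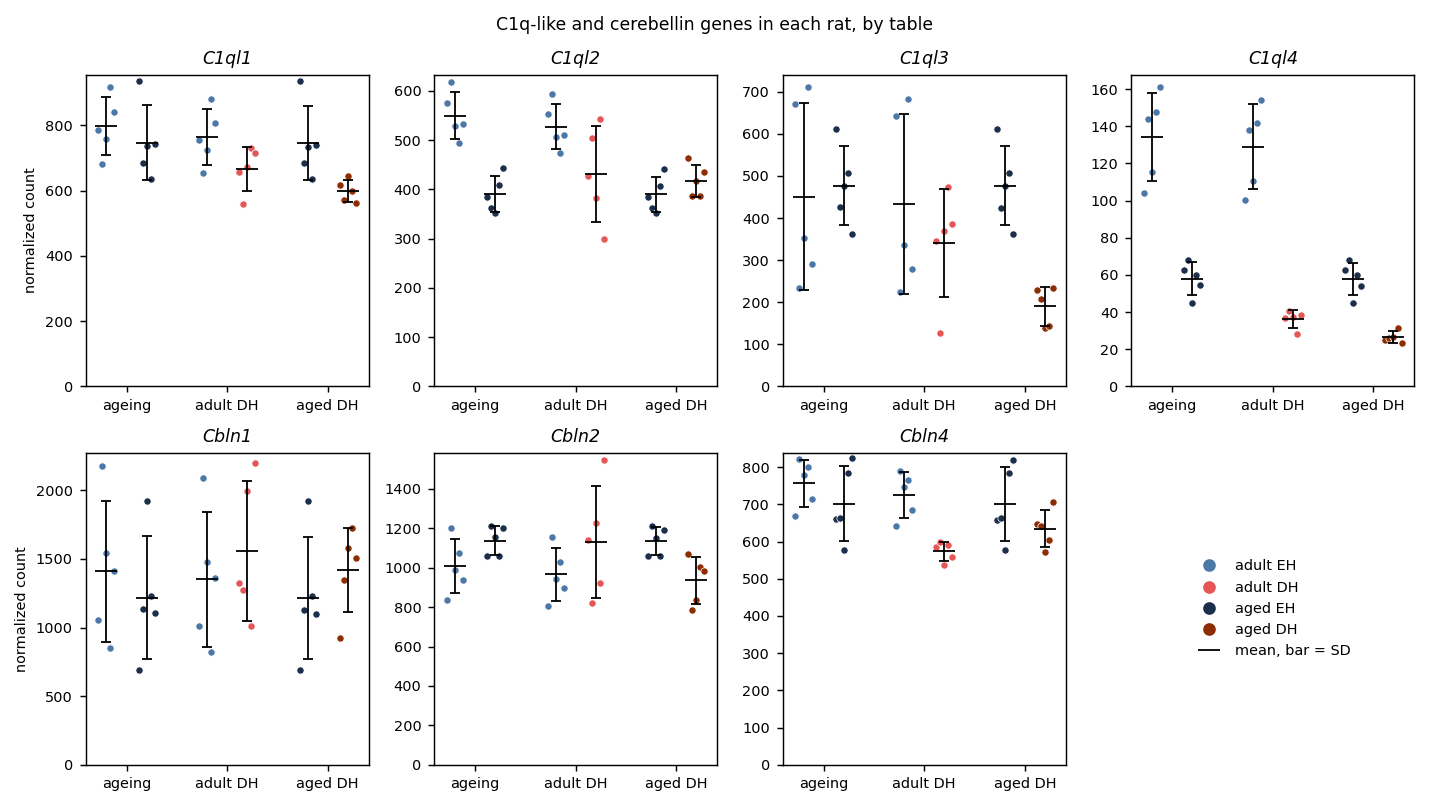
Normalized counts of the 7 genes in each rat (points, linear axes from 0), with the 2 groups of each of the 3 tables side by side and the mean and SD in black. The C1ql4 groups are apart in all 3 tables, the C1ql3 counts of adult rats run from 126 to 683 in the adult DH table, and Cbln1 overlaps throughout.

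Of the 6 genes tested, C1ql2 alone was called in ageing, where it fell. That is 1 of 6, beside 5.99% of all genes tested called in either direction and 3.3% called lower. C1ql2 (ENSRNOG00000046863) is a mossy fibre protein that binds neurexin 3 and recruits kainate receptors. It had 576, 617, 529.8, 495 and 532 normalized counts in adult EH rats and 386, 363, 353, 408 and 444 in aged EH rats. No aged rat reached the lowest adult rat. The LFC was -0.49 (SE 0.0763, limma adjusted p = 0.00246), and the call held when any 1 rat was left out (LFC -0.54 to -0.45). Several marker lists moved in the same comparison. Meningeal fibroblast markers were called lower for 3 of 5 tested (summed level 3597 to 6558 in aged EH, 9202 to 10666 in adult EH), and microglial markers higher for 3 of 6 (5443 to 6381 against 4702 to 5177). Markers of myelinating oligodendrocytes were called lower for 4 of 6, with overlapping sums (235433 to 285818 against 264040.0 to 386912). Also called lower were 2 of 5 oligodendrocyte precursor, 2 of 7 astrocyte and 1 of 4 endothelial markers tested. Among 6 magnocellular markers, 1 was called higher. The part of these cells in the C1ql2 result was not tested.

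The other 5 genes were not called in ageing. Cbln2, a neurexin ligand that also binds the delta receptors, had an LFC of 0.18 (95% interval 0.01 to 0.36, limma adjusted p = 0.219). C1ql1, the climbing fibre ligand of Adgrb3, had -0.10 (-0.31 to 0.11). Cbln4, which binds neurexins and the netrin receptor Dcc, had -0.11 (-0.31 to 0.08). The intervals of C1ql3 (LFC 0.20, -0.37 to 0.78) and Cbln1 (LFC -0.21, -0.75 to 0.33) were wide, as C1ql3 ran from 233 to 712 normalized counts in adult EH rats and Cbln1 from 692 to 1926 in aged EH rats.

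In adult rats, Cbln4 fell in DH, and none of the other 5 tested genes was called. This stands beside 12.7% of all genes called in either direction and 4.99% called lower. Cbln4 (ENSRNOG00000004372) had 641, 789, 746, 767 and 685 normalized counts in EH rats and 585, 599, 538, 590.4 and 557 in DH rats. The highest DH rat was below the lowest EH rat. The LFC was -0.33 (SE 0.0605, limma adjusted p = 0.00266). On the whole reads of the same libraries (666 to 829 in EH, 523 to 605 in DH), edgeR gave -0.34 (edgeR adjusted p = 0.00240). The call held when any 1 rat was left out (LFC -0.38 to -0.30).

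The summed level of 6 magnocellular markers (Avp, Oxt, Pdyn, Otp, Sim1 and Pou3f2) moved the other way in adult rats. It was 207363 to 298191 in EH and 298912 to 397534 in DH, and 2 of the 6 markers, Avp and Pdyn, were called higher. The hormone genes Avp and Oxt, with the counts given above, weigh heavily in this sum. The adult EH rat with the lowest sum, 207363, had the highest Cbln4 count, and the adult DH rat with the highest sum, 397534, had the lowest. The part of these cells' RNA in the Cbln4 result was not tested. In aged rats Cbln4 was not called (LFC -0.14, 95% interval -0.32 to 0.05, limma adjusted p = 0.419), with 578 to 819 in EH and 573 to 706 in DH. Of the 6 markers, 1 was called higher and 1 lower in aged DH, with overlapping sums (268351 to 382622 in EH, 318209 to 527056 in DH).

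C1ql2 and C1ql1 had lower LFCs in adult DH that missed the threshold. C1ql2 had 475 to 593 in EH rats and 428, 504, 384, 543 and 299 in DH rats, of which 3 lay below every EH rat (LFC -0.32, limma adjusted p = 0.139). Without adult DH replicate 4, C1ql2 was called too (LFC -0.41, limma adjusted p = 0.0491), which makes 2 of 6. C1ql1 had an LFC of -0.20 (limma adjusted p = 0.151), C1ql3 -0.33 (95% interval -1.10 to 0.45), Cbln1 0.22 (-0.30 to 0.74) and Cbln2 0.20 (-0.11 to 0.51).

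**Figure D2:**
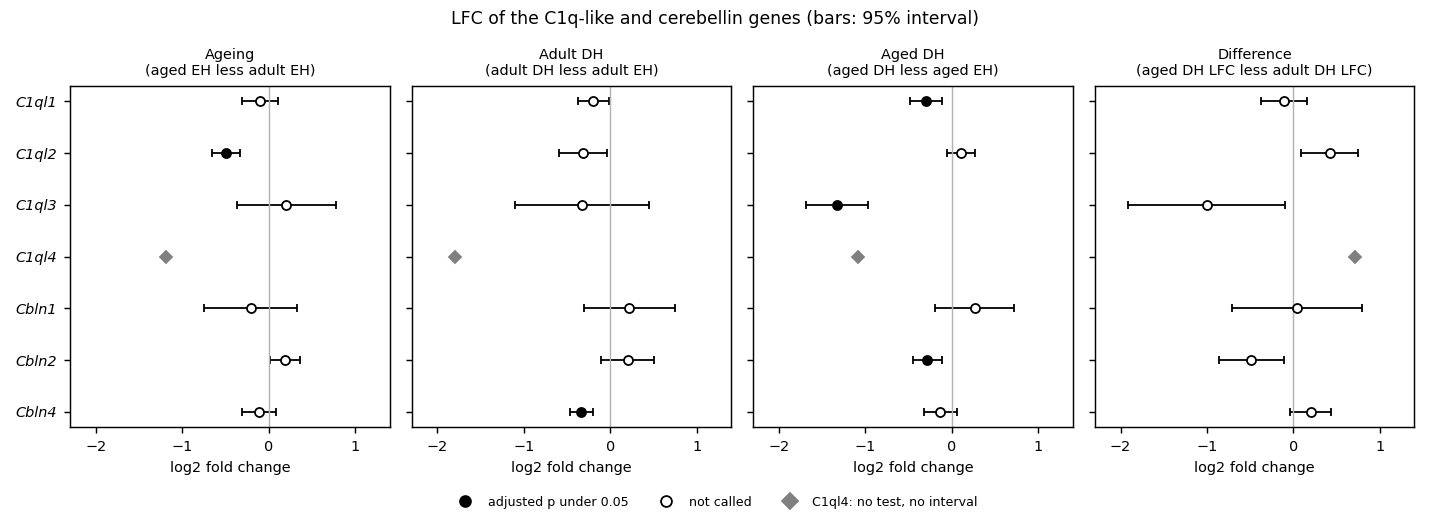
LFC of each gene (horizontal axis, log2 scale) with its 95% interval in ageing, adult DH, aged DH and the difference between the ages, with filled points for genes called. C1ql4 is a grey diamond without an interval. C1ql2 is called in ageing, Cbln4 in adult DH, and C1ql1, C1ql3 and Cbln2 in aged DH.

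In aged rats C1ql3, C1ql1 and Cbln2 fell in DH, which is 3 of the 6 tested, beside 7.29% of all genes called in either direction and 3.25% called lower. C1ql3 (ENSRNOG00000017459), which lies with C1ql2 at mossy fibre synapses and is also made by cortical excitatory neurones, changed most. Its normalized counts were 611, 425, 477, 507 and 361 in EH rats and 229, 207, 139, 144 and 234 in DH rats. The groups did not overlap. The DH mean was 0.400 times the EH mean (191 ± 46.0 against 476 ± 93.7, SD, n = 5), and the LFC was -1.33 (SE 0.165, limma adjusted p = 0.000483), at rank 15 from the lowest. The call held when any 1 rat was left out (LFC -1.42 to -1.22).

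Some markers of cortical or amygdalar glutamatergic neurones fell in the same aged rats. Of the 7 markers, Slc17a7 (LFC -1.92), Neurod6 (LFC -2.49) and Neurod2 (LFC -1.86) were called lower, and Tbr1, Emx1 and Fezf2 were among those not called. The summed level of all 7 was 2274 to 4817 in aged EH rats and 1810 to 2347 in aged DH rats, with overlap. No marker was at 0. In adult rats the sum was 1526 to 3750 in EH and 1729 to 3066 in DH, with 1 of the 7 markers called higher and 0 lower. There, the 2 EH rats with the lowest sums (1526 and 1831) had the 2 lowest C1ql3 counts of their group (224 and 278), and the DH rat with the lowest sum (1729) had the lowest C1ql3 count of all (126). The aged EH rat with the highest sum (4817) had the highest C1ql3 count of the aged rats. Among the aged DH rats, the lowest C1ql3 count (139) went with a sum of 2045. The lowest sums, 1810.08 and 1810.69, went with C1ql3 counts of 144 and 207. The part of this marker signal in the C1ql3 result was not tested.

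**Figure D3:**
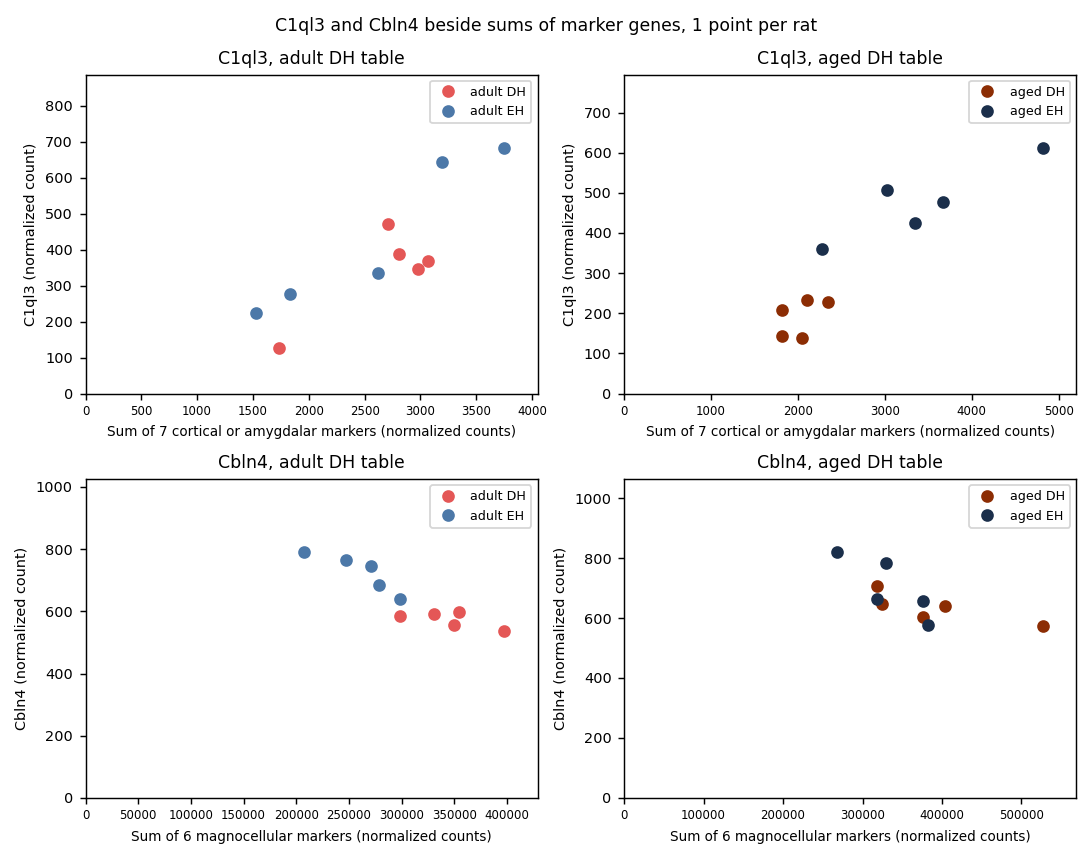
C1ql3 against the summed normalized counts of 7 cortical or amygdalar markers (top) and Cbln4 against those of 6 magnocellular markers (bottom), 1 point per rat, in the adult and aged DH tables. The adult rats with the 3 lowest cortical sums have the 3 lowest C1ql3 counts, and Cbln4 is highest at the lowest magnocellular sum in each table.

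C1ql1 (ENSRNOG00000002963) had 935, 684, 735, 634 and 738 normalized counts in aged EH rats and 618, 572, 644, 598 and 563 in aged DH rats. In 4 of the 5 DH rats the count was below every EH rat. The LFC was -0.30 (SE 0.0857, limma adjusted p = 0.0463). The call was lost when any single rat other than aged EH replicate 5 was left out (9 of 10 cases, limma adjusted p = 0.0509 to 0.0983). Cbln2 (ENSRNOG00000013654) had 1059.7, 1211, 1153, 1059 and 1194 in EH rats and 1071, 787, 838, 1004 and 984 in DH rats. Again 4 DH rats lay below every EH rat, with an LFC of -0.28 (SE 0.0785, limma adjusted p = 0.0418). This call was lost without aged EH replicate 2, 4, 5 or 6 or aged DH replicate 2, 3 or 5 (7 of 10 cases, limma adjusted p = 0.0544 to 0.103). Without aged EH replicate 2, 4 or 6 or aged DH replicate 2, 3 or 5, C1ql3 was the only one of the 6 genes called, 1 in place of 3.

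C1ql2, which fell with age, was not called in aged DH. It had 353 to 442 normalized counts in EH and 387 to 463 in DH (LFC 0.10, 95% interval -0.06 to 0.26). Cbln1 (ENSRNOG00000000010) was not called in any comparison, and its counts spread widely in each group. In the aged table it had 691, 1131, 1925, 1232 and 1102 in EH rats and 926, 1347, 1576, 1726 and 1507 in DH rats (LFC 0.26, 95% interval -0.20 to 0.72). Its coefficient of variation was 21.6% to 36.7% in the groups of the DH tables, beside 4.46% to 14.1% for Cbln4. Cbln3, the remaining cerebellin gene and not one of the 7, had 1.85 to 13.6 normalized counts per library and stayed under the minimum mean for testing.

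Whether DH changed the 6 genes differently in adult and aged rats was tested as an interaction across the 20 rats, with each rat's value from the DH table of its age. None of the 6 genes was called (limma), as for all 15326 genes tested, 0.0% of which were called. At an unadjusted p under 0.05, C1ql2, C1ql3 and Cbln2 differed, 3 of 6, beside 9.93% of all genes. C1ql3 had a difference in LFC of -1.003 (95% interval -1.91 to -0.09, limma adjusted p = 0.463), Cbln2 of -0.49 (-0.86 to -0.11, limma adjusted p = 0.371) and C1ql2 of 0.42 (0.08 to 0.75, limma adjusted p = 0.403). None was therefore shown to respond differently at the 2 ages after adjustment.

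Of 25 receptors and partners of the family, 24 were tested. In ageing limma called 0, beside 5.99% of all genes tested. In adult DH 5 were called (2 higher, 3 lower), which is 20.8% beside 12.7% of all genes. In aged DH 6 were called (2 higher, 4 lower), which is 25% beside 7.29%. In ageing, 4 of the 24 had an unadjusted p under 0.05, which is no larger a share than the 3116 of 15369 genes tested overall in that comparison. Leaving out aged EH replicate 6 gave 1 call, Neo1. The median LFC of the list was -0.05 in each comparison, and the medians over all genes tested were within 0.01 of 0. Among the best known partners, the neurexins Nrxn2 and Nrxn3, the delta receptor Grid1, the kainate receptors Grik2 and Grik4 and the receptors Dcc and Neo1 were not called in any of the 3 comparisons. With Adgrb3, the LFCs of these 8 genes ran from -0.12 to 0.07 in ageing, from -0.11 to 0.06 in adult DH and from -0.17 to 0.11 in aged DH.

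Adgrb3, the receptor of C1ql proteins, was the one of these 8 genes that was called, and it fell in aged DH. It had 2025 to 2221 normalized counts in aged EH and 1844 to 2006 in aged DH, with no overlap (LFC -0.17, SE 0.0376, limma adjusted p = 0.0122). Its relative Adgrb2 fell in adult DH (LFC -0.20) and in aged DH (LFC -0.26). The Nogo receptor homologue Rtn4rl1 rose in adult DH (LFC 0.58, limma adjusted p = 0.000146) and in aged DH (LFC 0.32), as did the netrin receptor Unc5c (LFC 0.23 in each). The kainate receptor subunit Grik1 and the netrin receptor Unc5d fell in adult DH (LFC -0.25 in each), and Neto2, an auxiliary subunit of kainate receptors, fell in aged DH (LFC -0.24). With 1 rat left out in aged DH, the call of Neto2 was lost in 8 of 10 cases, all but aged EH replicate 5 and aged DH replicate 6 (limma adjusted p up to 0.0886). That of Unc5c was lost in 7, all but aged EH replicates 4 and 5 and aged DH replicate 2 (up to 0.0739). That of Rtn4rl1 was lost in 5, without aged EH replicate 2, 5 or 6 or aged DH replicate 3 or 5 (up to 0.0800).

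The other Nogo receptor homologue, Rtn4rl2, fell in aged DH with the lowest LFC of the list, -1.42 (SE 0.284, limma adjusted p = 0.00784). It had 41.6 to 90.1 normalized counts in EH and 14.8 to 37.9 in DH, alongside the fall of Slc17a7, Neurod6 and Neurod2 in these rats, whose part was not tested. Without aged EH replicate 2, aged EH replicate 6 or aged DH replicate 5, the calls in aged DH numbered 3 in place of 6, namely Adgrb2, Adgrb3 and Rtn4rl2.

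Of 68 other synaptic organizers, 64 were tested. In ageing 6 were called (2 higher, 4 lower), which is 9.38% beside 5.99% of all genes. In adult DH 14 were called (7 higher, 7 lower), 21.9% beside 12.7%, and in aged DH 7 (4 higher, 3 lower), 10.9% beside 7.29%. The medians of the list were -0.04 in ageing, -0.06 in adult DH and -0.04 in aged DH. In ageing the largest changes were in the thrombospondins Thbs1 (LFC -0.87) and Thbs2 (LFC -0.38), the matrix protein Sparc (LFC -0.30) and the latrophilin Adgrl2 (LFC -0.29), which fell, and in the neuroligin-binding Mdga2 (LFC 0.24), which rose. With 1 rat left out, the call of Thbs2 was lost in 8 of 10 cases, all but aged EH replicate 1 and adult EH replicate 6 (limma adjusted p up to 0.0900). That of Mdga2 was lost in 7, all but aged EH replicate 1 and adult EH replicates 5 and 6 (up to 0.0689). The meningeal fibroblast markers Col1a1 (LFC -1.66), Col3a1 (LFC -1.34) and Lum (LFC -0.77) fell in the same comparison, and their part in the thrombospondin and Sparc results was not tested.

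In adult DH, the neuronal pentraxin receptor Nptxr rose from 7070 to 9722 normalized counts in EH to 12437 to 15009 in DH (LFC 0.71, SE 0.0777, limma adjusted p = 5.37e-05). Thbs2 (LFC 0.39), Mdga2 (LFC 0.35) and the Adam-binding Lgi2 (LFC 0.35) rose as well, and the signalling protein Wnt7a fell (LFC -0.38). The call of Wnt7a was lost in 7 of 10 cases with 1 rat left out, all but adult EH replicate 4 and adult DH replicates 1 and 4 (limma adjusted p up to 0.0854), and that of Thbs2 without adult DH replicate 1 (limma adjusted p = 0.0513). Without adult EH replicate 1 or 5 the calls numbered 9. In aged DH, Nptxr (LFC 0.34), Lgi2 (LFC 0.27) and Sparc (LFC 0.27) rose, while the pentraxin Nptx2 (LFC -0.32) and the neurexin ligand Lrrtm2 (LFC -0.26) fell.

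**Figure D4:**
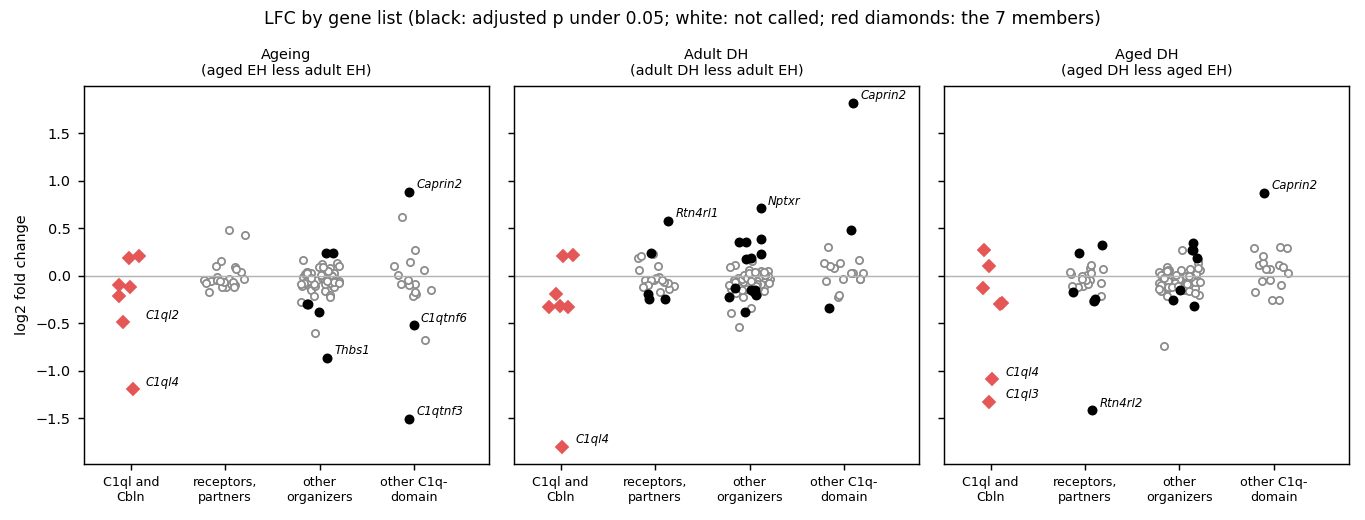
LFC (vertical axis, log2 scale) of the 7 family members (red diamonds) and of the genes tested in 3 lists, in ageing, adult DH and aged DH, with black points for genes called. C1ql4 was the gene whose fall chose the family, so its low place is a description only. C1qtnf3 lies below it in ageing, and C1ql3 and Rtn4rl2 lie below it in aged DH.

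Among 25 other genes with a C1q domain, 18 were tested. In ageing 3 were called, 16.7% beside 5.99% of all genes: C1qtnf3 (LFC -1.51) and C1qtnf6 (LFC -0.52) fell and Caprin2 (LFC 0.88) rose. The call of C1qtnf6 was lost in 5 of 10 cases, on removal of adult EH replicate 1, 2 or 5 or of aged EH replicate 4 or 5 (limma adjusted p up to 0.0841). In adult DH 3 were called, 16.7% beside 12.7%: Caprin2 (LFC 1.82) and Col8a1 (LFC 0.48) rose and C1qtnf4 (LFC -0.34) fell. The call of C1qtnf4 was lost in 6 of 10 cases, all but adult EH replicates 2, 4 and 6 and adult DH replicate 4 (limma adjusted p up to 0.0776). In aged DH, Caprin2 alone was called (LFC 0.87), 5.56% beside 7.29%. Caprin2, an RNA-binding protein with a C1q domain, had 1861 to 2740 normalized counts in adult EH and 7661 to 9526 in adult DH. In aged rats it had 2949 to 6160 in EH and 7023 to 11147 in DH, so its groups did not overlap at either age.

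The genes whose counts followed C1ql4 most closely were ranked by the mean of the Pearson correlations over the 10 libraries of each DH table, 20 rats in all, among 15158 genes. The first was Eif4a2, a translation factor (r = 0.968 in adults, 0.893 in aged rats), followed by the retinoid receptor Rxrg (0.927 and 0.928) and the growth factor binding protein Igfbp5 (0.973 and 0.874). Ddit4l2 (0.956 and 0.866) and Acss2, an acetyl-CoA synthetase (0.881 and 0.934), came next. Ageing did not enter the ranking. There, Eif4a2 (LFC 0.04) and Rxrg (LFC -0.17) were not called, while Igfbp5 (LFC -0.33), Ddit4l2 (LFC -0.61) and Acss2 (LFC -0.27) were called lower. In aged DH, Ddit4l2 (limma adjusted p = 0.142) and Acss2 (limma adjusted p = 0.0547) were not called. Within the family the mean correlation was 0.646 for Cbln4, 0.626 for C1ql1, 0.483 for C1ql3, 0.205 for Cbln2, 0.0193 for C1ql2 and -0.282 for Cbln1. These values are a description, since the libraries share their scaling and the EH and DH groups for which C1ql4 was picked out.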

How the data were processed

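Poly(A) RNA from SON punches of 20 rats was sequenced, 5 rats a group. Reads were aligned by the authors to Rn6 (STAR), assigned to genes with featureCounts (versions not given in the sources used here) and scaled by DESeq2 size factors. The signal deposited by the authors in each column is such a normalized count, scaled within each of 3 tables of 10 libraries, and all 30 per-sample columns were used. Their columns of means, fold changes, standard errors, test statistics and p-values hold their own comparisons and were not used. Symbols were joined by Ensembl identifier.

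After adding 1 to each normalized count, log2 values were formed. Genes averaging 10 or more were tested with limma 3.58.1 (R 4.3.3, moderation following the mean, two-sided, Benjamini-Hochberg over all genes tested, threshold 0.05). Intervals are 95% intervals from that fit. Columns of the adult DH table came back as whole reads for every value within 0.1 reads, and there edgeR 4.0.16 called 1936 genes, DESeq2 1.42.0 called 2243 and limma 1934. The fits were tested on simulated data. The gene lists and members were chosen with earlier results of these data known. In the longer lists the called genes with the 5 largest LFCs were named. Replicates were separate rats, and no 2 libraries of a group agreed within counting noise. Ogn, a symbol shared by more than 1 gene, was left out of its marker list. Proteins were not used here. Single values of a few listed genes are not reported here.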

Additional observations from a re-analysis of the deposited data

Results flagged for a closer look

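A library was picked out where its gap to the nearest library of its group took up more of the group's range than Dixon's 95% limit for 5 samples (0.71), which chance passes in about 1 in 20 groups. None of the 42 groups of the 7 family members and 6 of the 192 groups of the other named genes passed it. Each EH group stands in more than 1 table, so the groups counted are not all separate sets of rats. Adgrb3 was highest in adult EH replicate 1, with 2343 normalized counts in the ageing table (next 2184) and 2248 in the adult DH table (next 2095). Grik2 was highest in aged DH replicate 6, with 1677 (next 1491). Rtn4rl1 was highest in aged DH replicate 3, with 1966 (next 1682). Thbs1 was lowest in aged EH replicate 4, with 145.1 in both the ageing table (next 194) and the aged DH table (next 192).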

How the results depend on the processing

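The pseudocount (0.5 or 10), the minimum mean (none or 50), recentring on the median gene, moderation without the mean trend, a replicate block, leaving out each rat and, in adult DH, edgeR and DESeq2 on whole reads were tried. The calls of C1ql2 in ageing (17 alternatives), Cbln4 in adult DH (19) and C1ql3 in aged DH (17) held throughout, and 0 of the 6 genes was called for the difference between the ages in all 27. The count of the 6 called in aged DH, 3, was 1 with no minimum mean and 1 without the trend, and the cause was not tested; it ranged from 1 to 2 when a rat was left out, and that in adult DH from 1 to 2. Receptors and partners ranged from 0 to 1 in ageing and from 3 to 5 in aged DH when a rat was left out, and were 2 in aged DH without the trend. Other organizers in adult DH ranged from 9 to 14 when a rat was left out and were 9 without the trend. Apart from those with the replicate block, given below, all other counts of calls for these lists stayed within 1.5 times. Over all genes, calls in ageing were 516 without the trend and 594 to 906 with a rat left out, in place of 921, and in aged DH 671 and 678 to 1186, in place of 1119. The difference between the ages for Cbln1, 0.04, ranged from -0.14 to 0.23 when a rat was left out and turned negative without aged EH replicate 1 (-0.14), aged DH replicate 3 (-0.0023) or 5 (-0.035), adult EH replicate 2 (-0.13) or 4 (-0.0076) or adult DH replicate 2 (-0.014) or 4 (-0.098). The LFC of C1ql4 in aged DH was -0.89 with a pseudocount of 10.

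Of same-numbered pairs, 1 of 5 in ageing, 1 of 4 in adult DH and 1 of 4 in aged DH correlated above 0.1. In each table, 2 libraries correlated best with their own number. The highest same-numbered correlation was 0.124 in ageing, 0.134 in adult DH and 0.162 in aged DH. Among other pairs it was 0.131, 0.121 and 0.114. So few pairs cannot settle whether the replicate numbers pair the rats. With the replicate block, receptors and partners numbered 3 in adult DH and 3 in aged DH, and other organizers 7 in adult DH. Over all genes the block gave 987 calls in adult DH in place of 1934 and 653 in aged DH in place of 1119. With the block in aged DH, Cbln1 was called (LFC 0.40, limma adjusted p = 0.00469), and C1ql1 (limma adjusted p = 0.0581) and Cbln2 (limma adjusted p = 0.201) were not.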
